A study of Mus musculus with 6 samples.

Results

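The genes of the proteasome and immunoproteasome were taken from RNA sequencing of lipopolysaccharide-treated mouse macrophages in which Cxcr4 had been targeted by RNA interference. All protein-coding entries whose symbol begins with Psm, a letter from a to g and a number were taken, and for a symbol with several entries the one with the highest mean was to be kept. This gave 50 genes of 54532 entries in the table, each with its own symbol. By role, they comprised 7 alpha-ring and 7 constitutive beta-ring subunits, 3 inducible catalytic subunits (Psmb8, Psmb9 and Psmb10), 2 core subunits known from testis and thymus (Psma8 and Psmb11), 6 ATPases and 11 other subunits of the regulatory particle. The remainder were 3 chaperones of that particle (Psmd5, Psmd9 and Psmd10), 4 chaperones of the core (Psmg1 to Psmg4), the activator genes Psme1 to Psme4 with the copy Psme2b, the inhibitor Psmf1, and Psmc3ip. Psmc3ip matched the naming rule although its product acts in meiotic recombination and is no proteasome subunit.

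The proteasome degrades ubiquitin-tagged proteins. Its core particle stacks rings of alpha subunits, which form the gate, on rings of beta subunits, of which PSMB5, PSMB6 and PSMB7 carry the proteolytic sites. Regulatory particles unfold substrates with a ring of ATPases (PSMC proteins) and recognise and strip ubiquitin with their non-ATPase subunits (PSMD proteins). Interferon and inflammatory signals induce PSMB8, PSMB9 and PSMB10, which replace PSMB5, PSMB6 and PSMB7 in newly built particles to form the immunoproteasome, and PSME1 and PSME2, which form the activator PA28. In macrophages the immunoproteasome is known for supplying peptides for MHC class I molecules.

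The cells were bone-marrow-derived macrophages of C57BL/6 mice, transfected with an siRNA directed at Cxcr4 (siCXCR4) or a negative-control siRNA (siNC). All groups had received lipopolysaccharide (LPS) at 100 ng/ml for 12 hours, so there was no unstimulated group. The labels name 3 samples per group, but the table of siNC replicate 3 held whole read counts equal to those worked back for siNC replicate 2 in all 19072 genes with reads. These tables differed by less than sampling noise, and they were counted as 1 sample, which left 2 siNC and 3 siCXCR4 libraries. No label states that the replicates are separate cultures or animals. The p-values therefore reflect the spread among these libraries, which may be technical. The series title calls the cells monocyte-derived, and the value columns are headed wt (siNC) and mko (siCXCR4) with a number.

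Libraries held 18890751 to 21780840 reads in genes, and 0.599% to 0.664% of these fell in the 50 proteasome genes. The siRNA target Cxcr4 was at 41.3 and 42.1 FPKM in siNC and at 31.1, 36.2 and 32.7 FPKM in siCXCR4, so its transcript was lower in every siCXCR4 library but still present (log2 fold change -0.32, SE 0.0704, limma adjusted p = 0.457, exact two-sided permutation p = 0.1, the smallest that 2 libraries against 3 allow). Its adjusted p was 0.0637 by edgeR and 0.0465 by DESeq2. By edgeR it was 0.412, 0.000786 and 0.260 without siCXCR4 replicates 1, 2 and 3. Over genes above a minimum of reads, siCXCR4 replicate 2 stood nearer to siNC than to its own group. Its chi-square per gene was 4.50 and 5.88 against siNC replicates 1 and 2, and 6.87 and 8.66 against siCXCR4 replicates 1 and 3. Likewise siNC replicate 1 stood nearer to siCXCR4 replicate 2 (4.50) than to siNC replicate 2 (5.24). The highest Cxcr4 of the siCXCR4 libraries was also in siCXCR4 replicate 2, so leaving that library out widens the Cxcr4 difference by construction. All 8 macrophage markers examined were detected, with Lyz2 the most abundant (2365 FPKM on average). Markers of dendritic, B, T, natural killer, erythroid and mast cells and fibroblasts had no gene with a mean of 1 FPKM or more. Of 7 neutrophil markers 2 passed that level, and their summed level was 68.5 to 70.7 FPKM in siNC and 48.5 to 57.2 FPKM in siCXCR4, led by S100a9, with Retnlg at 0 in every library. Its part in the differences below was not tested.

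FPKM scale the reads of a gene by its deposited length in kilobases and by the size of the library. A log2 fold change is the mean log2(FPKM + 1) of the 3 siCXCR4 libraries minus that of the 2 siNC libraries. A gene was tested where its mean over libraries was at least 1 FPKM, and 47 of the 50 proteasome genes were. In the limma fit over all 9943 genes tested, 0 of the 47 had an adjusted p under 0.05, where 0.0% of all genes did, and the smallest adjusted p among them was 0.488 (Psme2b). By edgeR on whole reads 0 of 49 genes passed, against 0.133% of all genes tested, and by DESeq2 1 of 49 (Psme2b, lower), against 0.258% of all genes, or 0.109% lower. At an unadjusted p under 0.05 by limma, 3 of 47 were lower (3.54% of all genes tested were) and 1 was higher (5.8% of all genes).

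In direction, 33 of the 47 genes lay below 0 and 14 above, with a median log2 fold change of -0.04. The median was -0.0069 without siCXCR4 replicate 3 and -0.08 without siNC replicate 2. Of all genes tested, 43.6% lay below 0 and 56.4% above, and their median was 0.01. By edgeR, on 12794 genes, 48.1% lay above, with a median of -0.0064. By DESeq2 48.8% did, with a median of -0.0041. By either, 15 of 49 proteasome genes lay above 0. The library sizes behind the deposited FPKM held 2.80% and 2.15% of reads outside genes in siNC. In siCXCR4 they held 0.00033%, 0.31% and 1.37%. The part of this in the fold changes was not tested. All 3 siCXCR4 values lay under both siNC values for 8 of 47 genes (9.92% of all genes tested) and over both for 5 (17.9%). Together these were 13 of 47, at 27.8% of all genes tested. The count above 0 was 22 without siCXCR4 replicate 3 and 19 without siNC replicate 1, both by limma. In bulk RNA, fewer cells with a transcript and less transcript per cell cannot be told apart. The plot of changes by role shows the fold changes with their intervals.

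**Figure D1:**
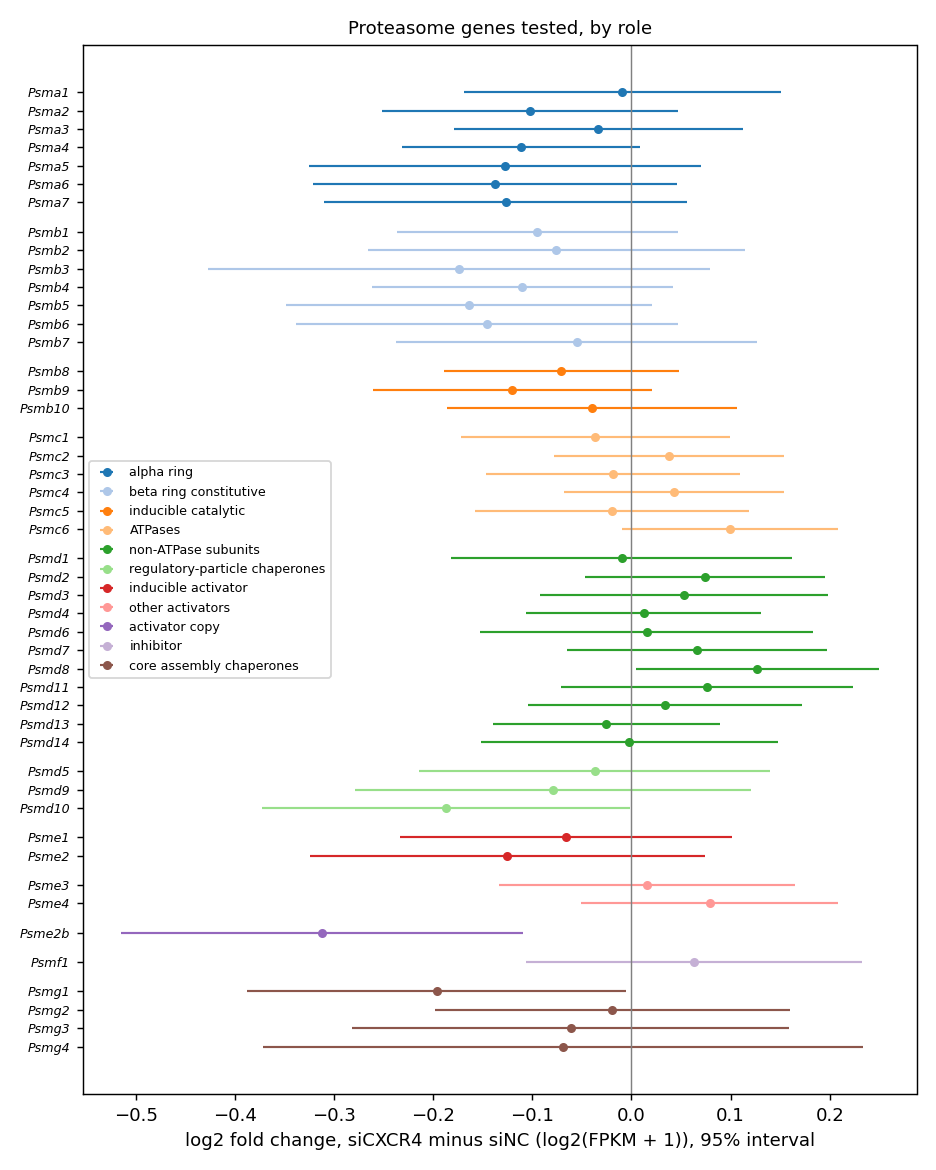
Log2 fold change of each of the 47 proteasome genes tested (siCXCR4 minus siNC, log2(FPKM + 1), points) with its 95% interval from limma (lines), coloured by role. All 14 constitutive core subunits and all 5 inducible genes lie left of 0, most regulatory-particle subunits lie right of it, and the interval excludes 0 for Psme2b, Psmg1, Psmd10 and Psmd8 only.

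The catalytic subunits of the immunoproteasome were abundant in both groups. Psmb8, which replaces Psmb5 and carries the chymotrypsin-like site, was at 131 and 128 FPKM in siNC and 127, 121 and 121 FPKM in siCXCR4. Each siCXCR4 value was under the siNC values by a small margin. The log2 fold change of Psmb8 was -0.07 (SE 0.0497, 95% interval -0.19 to 0.05, limma adjusted p = 0.678).

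Psmb9, which replaces Psmb6, was at 47.5 and 50.7 FPKM in siNC and 46.8, 42.9 and 45.6 FPKM in siCXCR4, again with no overlap (log2 fold change -0.12, SE 0.0592, limma adjusted p = 0.576). Psmb9 lies head to head with Tap1, which encodes a subunit of the peptide transporter, on chromosome 17 at 34181988 to 34187764, and the annotated genes overlap by 212 bases on opposite strands. Psmb10, which replaces Psmb7, was at 275 and 272 FPKM in siNC and 279.8, 268 and 251 FPKM in siCXCR4. Its groups overlapped, with siCXCR4 replicate 1 the highest of the 5 libraries (log2 fold change -0.04, SE 0.0613, limma adjusted p = 0.856). The direction of Psmb10 turned without siCXCR4 replicate 3, at 0.0023.

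The constitutive subunits that they replace also lay slightly lower in siCXCR4. Psmb5 was at 117 and 105 FPKM in siNC and 98.5, 107 and 92.6 FPKM in siCXCR4, where replicate 2 lay between the siNC libraries (log2 fold change -0.16, SE 0.0774, 95% interval -0.35 to 0.02, limma adjusted p = 0.561). Psmb6 was at 140.4 and 134 FPKM in siNC and 125, 135 and 113 FPKM in siCXCR4, with replicate 2 again between the siNC values (log2 fold change -0.15, SE 0.0807, limma adjusted p = 0.613). Psmb7 was at 25.6 and 24.8 FPKM in siNC and 24.3, 26.4 and 22.1 FPKM in siCXCR4, and its groups overlapped (log2 fold change -0.05, limma adjusted p = 0.834). Psmb7 overlaps Nek6 on the other strand, with 1722 reads on average against 2017 for Nek6. Whether counting used strand is not stated in the labels.

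**Figure D2:**
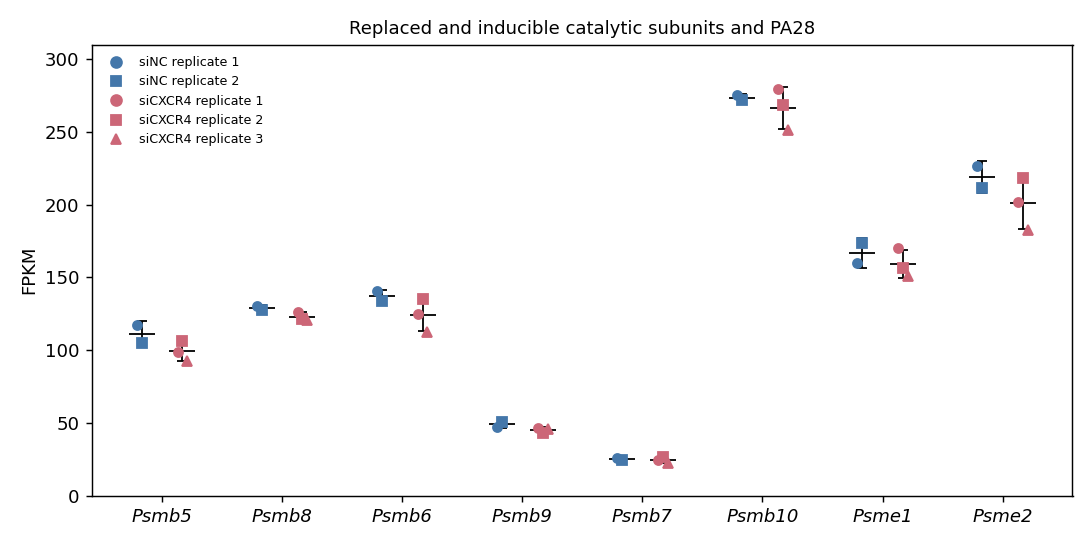
FPKM of the 3 catalytic subunits (Psmb5, Psmb6, Psmb7), the inducible subunits that replace them (Psmb8, Psmb9, Psmb10) and the PA28 genes (Psme1, Psme2) in each library, with the group mean (bar) and SD (whiskers, n = 2 siNC and n = 3 siCXCR4). Values of the groups lie close together in every gene, with Psmb10 at 251 to 279.8 FPKM the most abundant of the 8 per deposited gene length.

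As the inducible and the replaced subunit of each pair compete for the same place, their ratio was computed within each library. Psmb8 over Psmb5 was 1.11 and 1.21 in siNC and 1.28, 1.14 and 1.30 in siCXCR4. Psmb9 over Psmb6 was 0.338 and 0.378 in siNC and 0.374, 0.318 and 0.405 in siCXCR4. Psmb10 over Psmb7 was 10.8 and 10.98 in siNC and 11.5, 10.2 and 11.4 in siCXCR4. In all 3 pairs the groups overlapped, and the lowest or second lowest ratio was that of siCXCR4 replicate 2. On the log2 scale the ratios differed between groups by 0.09, 0.02 and 0.02 (siCXCR4 minus siNC), and the sign of the last pair of values depended on which library was left out.

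The level of these ratios depends on the length used, because the deposited gene length counts all annotated exons. Psmb7 has a deposited length of 3421 bases and a principal transcript of 1160 bases, and Psmb5 has 899 bases in both. Per kilobase of the principal transcript of GENCODE M21, a length chosen after the data were seen, Psmb8 over Psmb5 averaged 2.03 over the 5 libraries, against 1.21 with the deposited length. Psmb9 over Psmb6 averaged 0.418 against 0.363, and Psmb10 over Psmb7 averaged 4.83 against 10.96. On both scales Psmb8 and Psmb10 exceeded the subunit they replace in all 5 libraries, and Psmb9 was below Psmb6 in all 5. How reads matching several genes were counted may also move these ratios, which was not tested. Of the stretches of 50 bases in the principal transcript, 57.1% for Psmb5 and 28.1% for Psmb7 also occur in transcripts of other genes. For Psmb8, Psmb10, Psmb9 and Psmb6 the shares are 5.83%, 0%, 12.5% and 2.67%.

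**Figure D3:**
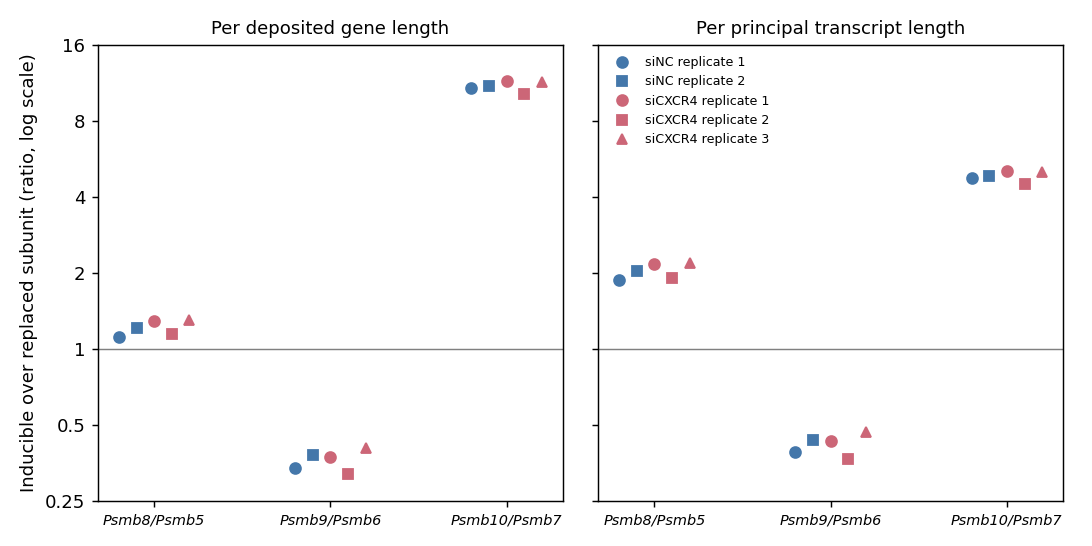
Ratio of each inducible catalytic subunit to the constitutive subunit that it replaces in each library (log axis), per deposited gene length (left) and per principal transcript length (right). Psmb10 over Psmb7 drops from about 10.96 to 4.83 on average between the scales, Psmb8 over Psmb5 climbs from 1.21 to 2.03, and siNC and siCXCR4 libraries are interleaved in every pair.

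Upstream sequences are shown for Psmb8, for Psmb5, which it replaces, and for Psmb6, because each holds a match to a response element. Most of the other genes searched held no such match, and the counts are given after the sequences. Sequences are the 150 bases upstream of the RefSeq start in GRCm38.p6, 5′ to 3′ on the gene's strand, with the matched motif in capitals. Psmb8 (chr17:34198045-34198194, plus strand) holds a gamma-activated site, an element of the response to interferon gamma, starting 97 bases upstream. The deposited Psmb8 entry spans 34197721 to 34201454, so this stretch lies inside it and is upstream of the RefSeq start only. Psmb5 (chr14:54617996-54618145, minus strand) and Psmb6 (chr11:70525207-70525356, plus strand) hold an antioxidant response element, which NFE2L1, the factor that raises proteasome genes when degradation is short, can bind, starting 47 and 9 bases upstream.
Psmb8: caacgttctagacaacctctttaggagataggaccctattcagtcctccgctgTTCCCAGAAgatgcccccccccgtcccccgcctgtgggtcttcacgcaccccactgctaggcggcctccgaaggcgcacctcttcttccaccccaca
Psmb5: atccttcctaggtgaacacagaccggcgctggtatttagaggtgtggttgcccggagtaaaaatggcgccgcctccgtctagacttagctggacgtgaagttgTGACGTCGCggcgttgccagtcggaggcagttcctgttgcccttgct
Psmb6: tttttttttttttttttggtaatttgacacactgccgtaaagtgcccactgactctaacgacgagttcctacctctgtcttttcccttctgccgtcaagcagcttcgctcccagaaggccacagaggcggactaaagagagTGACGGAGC

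Of the 50 genes, 42 had a RefSeq promoter window of 250 bases before to 50 bases after the start, 45 windows in all, which were searched on both strands. The antioxidant response element (TGACNNNGC) was found in Psmb5, Psmb6, Psmc6, Psmd12, Psmd9 and Psme4, 6 of 42 genes, and in 12.4% of all 32851 windows. The gamma-activated site (TTCNNNGAA) was found in Psmb8, Psmd2 and Psmg1, 3 of 42, and in 8.30% of windows. The interferon-stimulated response element (GAAA and GAAA with 2 bases between), bound by IRF factors, was found in Psmb3, Psmd4, Psmd9, Psme1 and Psmg4, 5 of 42, and in 3.44% of windows. Among the 5 inducible genes, Psmb8 and Psme1 held 1 of these interferon elements each, and Psmb9, Psmb10 and Psme2 held neither of them in these windows. A match describes the letters of the window only.

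All 7 alpha-ring and all 7 constitutive beta-ring genes had log2 fold changes below 0, from -0.17 (Psmb3) to -0.01 (Psma1), with a median of -0.11. The count was 12 of 14 without siNC replicate 1 or without siCXCR4 replicate 3. None had an adjusted p under 0.05 by limma, where 0.0% of all genes tested did. At an unadjusted p under 0.05 by limma 0 passed, where 3.54% of all genes were lower and 5.8% higher. Psma4, an alpha-ring subunit, was at 68.8 and 70.5 FPKM in siNC and 65.3, 65.9 and 62.1 FPKM in siCXCR4, with no overlap (log2 fold change -0.11, SE 0.0504, limma adjusted p = 0.549). Psma7 and Psmb1 were the other core genes whose groups did not overlap, which made 3 of 14, all lower. Of all genes tested 9.92% were lower with no overlap. Psma6, the most abundant alpha-ring gene per deposited length, was at 153 and 136 FPKM in siNC and 128, 141 and 124 FPKM in siCXCR4, and siCXCR4 replicate 2 lay between the siNC libraries.

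Psma7 was at 48.6 and 49.4 FPKM in siNC and 46.1, 48.2 and 40.6 FPKM in siCXCR4, with replicate 2 close under the siNC values. Psmb1, a noncatalytic beta subunit and the least abundant core gene per deposited length, was at 20.1 and 20.3 FPKM in siNC and 18.8, 19.9 and 17.8 FPKM in siCXCR4. Psma2 (log2 fold change -0.10) and Psmb4 (-0.11) overlapped between the groups. The values of several genes turned on the siNC library kept, as Psmb4 was at -0.035 without siNC replicate 1 and -0.19 without siNC replicate 2, and Psmb5 at -0.086 and -0.24. The least abundant alpha-ring gene, Psma3, had a log2 fold change of -0.03, which turned to 0.02 without siNC replicate 1.

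In 6 of the 14 constitutive core genes, at least 20% of the stretches of 50 bases in the principal transcript also occur in transcripts of other genes. The same held for 1 of 17 regulatory-particle genes (Psmd2), with Psmd11 (18.9%), Psmc1 (17.6%) and Psmd13 (15.8%) not far under that level. The share was 57.1% for Psmb5, 55.8% for Psmb3 and 55.4% for Psma5. Both strands of the other transcripts were searched. The share of Psmb7, 28.1%, is all with Nek6, which overlaps it on the other strand, so for Psmb7 the open point is strand. No source used here states how reads matching several places were counted, and the values of the other genes are uncertain to that extent.

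Of the 17 subunit genes of the regulatory particle, 11 had log2 fold changes above 0 and 6 below, where 56.4% of all genes tested lay above. The values ran from -0.04 (Psmc1) to 0.13 (Psmd8). Their median was 0.03, against 0.01 for all genes tested. By edgeR 10 of the 17 lay above 0, with a median of 0.017. Of all genes 48.1% did by edgeR, with a median of -0.0064. The limma median of the 17 was 0.011 without siCXCR4 replicate 2, 0.014 without siNC replicate 2 and 0.060 without siCXCR4 replicate 3. The count above 0 ran from 9 to 14 with 1 library left out. Psmd8, a non-ATPase subunit of the lid, was at 62.9 and 63.6 FPKM in siNC and 70.4, 70.9 and 66.4 FPKM in siCXCR4, all 3 above both siNC values (log2 fold change 0.13, SE 0.0513, 95% interval 0.0045 to 0.25, limma adjusted p = 0.526). Psmd2, a scaffold of the base and the most abundant gene of the particle per deposited length, was at 84.2 and 79.7 FPKM in siNC and 85.0, 88.2 and 85.8 FPKM in siCXCR4, also with no overlap (log2 fold change 0.07, limma adjusted p = 0.668). Psmd11, a lid subunit, had 0.08 with overlapping groups.

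Among the 6 ATPases, Psmc6 was at 25.3 and 25.4 FPKM in siNC and 27.6, 27.3 and 26.9 FPKM in siCXCR4, with all siCXCR4 values above (log2 fold change 0.10, SE 0.0456, limma adjusted p = 0.551). Psmc4 was at 46.0 and 44.8 FPKM in siNC and 46.5, 46.3 and 47.7 FPKM in siCXCR4, with groups that did not overlap. Psmc2 (log2 fold change 0.04) and Psmc1 (-0.04), the most abundant ATPase gene, overlapped between the groups. In 4 of the 17 genes of the particle all siCXCR4 values lay above both siNC values, as in 17.9% of all genes tested. None of the 17 had an adjusted p under 0.05 by limma, where 0.0% of all genes tested did.

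The chaperones that assemble the regulatory particle were 3 of 3 below 0. Psmd10 (gankyrin), which chaperones the ATPase Psmc4, was at 45.0 and 44.7 FPKM in siNC and 39.0, 43.2 and 36.0 FPKM in siCXCR4, with no overlap (log2 fold change -0.19, SE 0.0778, 95% interval -0.37 to -0.0017, limma adjusted p = 0.534). Psmd9 had -0.08 at a mean of 2.98 FPKM, with overlapping groups.

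Within each library, the mean level of the 14 core genes relative to that of the 17 regulatory-particle genes separated the groups. Each gene was centred on its mean over the 5 libraries, and the mean of the core minus that of the particle was 0.09 and 0.07 in siNC and -0.09, 0.02 and -0.09 in siCXCR4, on the log2(FPKM + 1) scale. All 3 siCXCR4 values were lower, with replicate 2, the library that stood nearer to siNC by chi-square per gene, nearest here too. For the core genes alone the groups overlapped, since siCXCR4 replicate 2 lay at 0.06, between siNC at 0.10 and 0.03, while siCXCR4 replicates 1 and 3 lay at -0.05 and -0.13. For the particle alone siNC lay at 0.01 and -0.04 and siCXCR4 at 0.04, 0.04 and -0.04.

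The difference between the median log2 fold changes of core and particle was -0.14, and it ran from -0.16 to -0.12 over all alternatives, with any 1 library left out included. With a trend on gene length removed from each library it was -0.12. The median deposited length was 2335 bases for the core genes and 2820 for those of the particle, against 3987 for all genes tested. This contrast was chosen after the values were seen, so it is a description with no test.

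**Figure D4:**
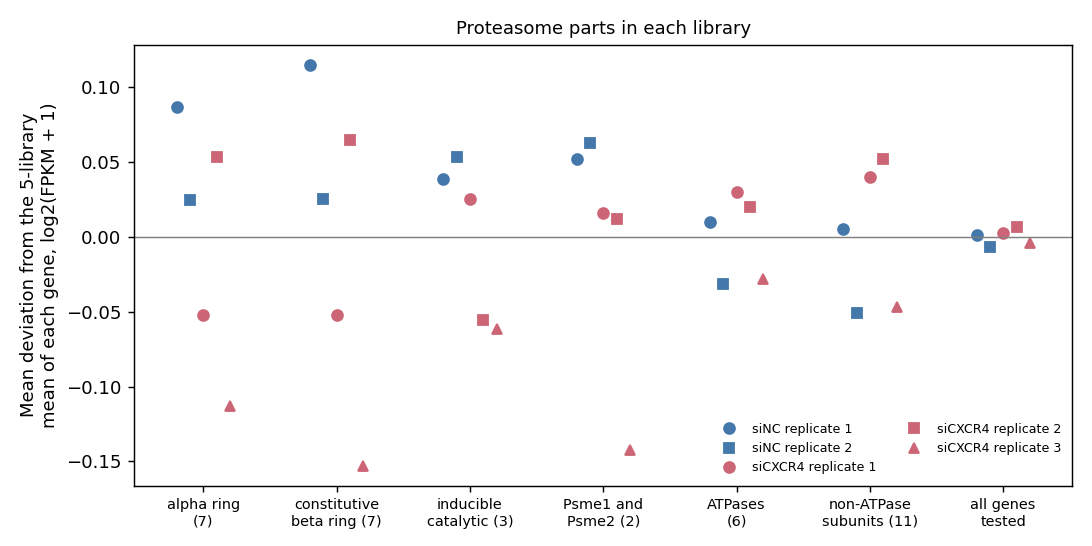
Mean deviation of each role group from the 5-library mean of its genes (log2(FPKM + 1)) in each library, with the number of genes in parentheses. For both rings siCXCR4 replicates 1 and 3 lie below all other libraries and siCXCR4 replicate 2 lies between the siNC libraries, whereas ATPases and non-ATPase subunits show no such order, and all genes tested stay within 0.01 of 0.

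The 5 inducible genes together had a median log2 fold change of -0.07, and the 34 constitutive genes of the core and regulatory particle with its chaperones had -0.03. The mean of the inducible genes relative to that of the constitutive genes, centred in the same way, was -0.01 and 0.06 in siNC and 0.03, -0.07 and -0.01 in siCXCR4. For the inducible genes alone the values were 0.04 and 0.06 in siNC and 0.02, -0.03 and -0.09 in siCXCR4, with no overlap. Relative to the constitutive genes they overlapped, with siCXCR4 replicate 2 the lowest and siNC replicate 2 the highest. The difference of the medians was -0.04 and ran from -0.08 to 0.0042 with 1 library left out.

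Of the activator genes, Psme1 (PA28 alpha) was at 159.7 and 174 FPKM in siNC and 170.2, 157 and 151 FPKM in siCXCR4, with overlapping groups (log2 fold change -0.07, SE 0.0702, limma adjusted p = 0.784). Psme2 (PA28 beta) was at 227 and 211 FPKM in siNC and 202, 218 and 183 FPKM in siCXCR4, where replicate 2 lay between the siNC libraries (log2 fold change -0.13, SE 0.0833, limma adjusted p = 0.665). Psme1 and Psme2 lie near each other on chromosome 14, at 55578123 to 55581529 and 55587441 to 55591113. Psme4 (PA200), an activator known from DNA repair and spermatogenesis, was at 19.7 and 20.99 FPKM in siNC and 21.3, 21.01 and 22.3 FPKM in siCXCR4, with siCXCR4 just above (log2 fold change 0.08, limma adjusted p = 0.670). Psme3, the nuclear activator PA28 gamma, had 0.02.

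Psme2b had the lowest p of the 47 genes. This single-exon copy of Psme2 on chromosome 11, at 48945354 to 48946190 on the minus strand, was at 240.1 and 287 FPKM in siNC and 218, 215 and 201 FPKM in siCXCR4. Every siCXCR4 value was under the siNC values, which themselves lay far apart. The log2 fold change was -0.31 (SE 0.0852, 95% interval -0.52 to -0.11). Its adjusted p was 0.488 in limma, 0.0974 in edgeR and 0.0304 in DESeq2. In edgeR the adjusted p was 0.0139 without siNC replicate 1 and 0.506 without siNC replicate 2, and the log2 fold change by limma was -0.18 without siNC replicate 2.

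The coding sequences of Psme2 and Psme2b in GENCODE M21 are both 717 bases long and differ at 5 bases, an identity of 99.3%. The stretch of coding bases 424 to 543 that holds 3 of these differences is given for both, 5′ to 3′, with differing bases in capitals.
Psme2: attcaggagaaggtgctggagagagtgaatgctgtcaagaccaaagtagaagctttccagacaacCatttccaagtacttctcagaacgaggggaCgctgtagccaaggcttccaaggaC
Psme2b: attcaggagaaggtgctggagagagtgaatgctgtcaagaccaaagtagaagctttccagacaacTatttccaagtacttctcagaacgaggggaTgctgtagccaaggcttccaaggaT

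Of the stretches of 50 bases in Psme2b, 68.7% also occur in Psme2, so the split of reads between these genes is uncertain. Psme2b also overlaps the entry Gm12185 over its whole length on the same strand. Psme2b held 33.4% and 39.2% of the reads of the 2 genes together in siNC and 33.9%, 31.8% and 34.3% in siCXCR4, so siNC replicate 2 stood highest. Added together, their reads were 601 and 613 reads per 1000000 library reads in siNC and 539, 565 and 490.4 in siCXCR4, with no overlap and a log2 difference of -0.19. The sum was chosen after the data were seen and was not tested.

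Removing siCXCR4 replicate 2, the library nearer to siNC than to its group, changed the calls on whole reads. Leaving out the siCXCR4 library nearest to siNC tends to widen the group difference by construction, so these calls are no independent result. Without siCXCR4 replicates 1 or 3 edgeR called 0 and 3 genes, with 0 proteasome genes in both. Without siCXCR4 replicate 2 edgeR called 328 genes in all, 2.56% of those tested and 1.5% lower. These 328 held 4 of the 49 proteasome genes, all lower, namely Psme2b (adjusted p = 0.0171), Psmd10 (0.0274), Psmb3 (0.0433) and Psma5 (0.0442). With all 5 libraries edgeR called none of these, and at an unadjusted p under 0.05 it had 9 proteasome genes lower and 0 higher, where 5.27% and 4.46% of all genes were. Psmb3 and Psma5, named here after their values were seen, are core subunits with overlapping groups. Psmb3 was at 29.3 and 25.1 FPKM in siNC and 23.7, 26.8 and 21.6 FPKM in siCXCR4, and Psma5 was at 123 and 120.4 FPKM in siNC and 107, 124 and 103 FPKM in siCXCR4. In both, siCXCR4 replicate 2 reached the siNC values.

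The assembly chaperones of the core were measured at low levels, and all 4 lay below 0. Psmg1, which pairs with Psmg2 to build the alpha ring, was at 4.11 and 4.49 FPKM in siNC and 3.83, 3.26 and 3.81 FPKM in siCXCR4, with no overlap but on only 85 to 122 reads per library (log2 fold change -0.20, SE 0.0800, limma adjusted p = 0.528). Psmg2 (log2 fold change -0.02), Psmg3 (-0.06) and Psmg4 (-0.07), the last the most abundant at a mean of 14.6 FPKM, overlapped between the groups. Psmf1, the inhibitor PI31, was at 4.27 and 4.92 FPKM in siNC and 4.70, 5.01 and 4.80 FPKM in siCXCR4 (log2 fold change 0.06). The signs of Psmg2, Psmg4 and Psmf1 turned in at least 1 alternative.

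The 3 genes under 1 FPKM were Psma8, Psmb11 and Psmc3ip. Psma8, the alpha subunit of spermatogenic cells, was at 0.482 and 0.569 FPKM in siNC and 0.678, 0.701 and 0.987 FPKM in siCXCR4, on 18 to 32 reads per library. Psmb11, the catalytic subunit of the thymus, had 0 to 2 reads per library. Psmc3ip was at 0.424 to 0.707 FPKM and overlaps Mlx on the other strand.

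Genes that build, control or use the proteasome were taken from 6 lists. None of their 57 genes tested had an adjusted p under 0.05 by limma, edgeR or DESeq2. Of all genes tested 0.0%, 0.133% and 0.258% did by these tests. Pomp, which matures the core particle, was at 24.9 and 24.1 FPKM in siNC and 22.0, 24.8 and 21.1 FPKM in siCXCR4, where replicate 2 again lay with siNC (log2 fold change -0.11, limma adjusted p = 0.664). Of 21 other subunits, ubiquitin receptors and associated factors, 11 lay above 0 and 10 below. At an unadjusted p under 0.05, 2 were higher and 1 lower, where 5.8% and 3.54% of all genes tested were. Sem1, a small lid subunit, was at 16.1 and 13.8 FPKM in siNC and 11.6, 13.5 and 12.5 FPKM in siCXCR4 (log2 fold change -0.24, SE 0.0860, limma adjusted p = 0.509). Akirin2, which carries proteasomes into the nucleus, was at 14.1 and 14.2 FPKM in siNC and 15.8, 15.1 and 16.4 FPKM in siCXCR4 (log2 fold change 0.15, limma adjusted p = 0.512). Zfand2a, a stress-induced proteasome-binding protein, had 0.11.

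Of 6 genes on the list drawn up for proteasome transcription, not all of them direct regulators, 4 lay above 0 and 2 below. Of all genes tested 56.4% lay above. Nfe2l1, the factor named above, was at 113 and 110.4 FPKM in siNC and 113, 117 and 115 FPKM in siCXCR4, just above (log2 fold change 0.05, limma adjusted p = 0.773). Nfe2l2 (log2 fold change 0.06) and Stat3 (0.10) overlapped between the groups. Among 6 ubiquitin and activating-enzyme genes, 3 lay above 0 and 3 below. Uba1, the main ubiquitin-activating enzyme, had a log2 fold change of 0.04 with overlapping groups, which quantile normalization turned to below 0.

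Of 10 genes of MHC class I loading, which takes up the peptides made by the proteasome, 7 lay above 0 and 3 below, with a median of 0.02. Tap1 was at 181 and 188 FPKM in siNC and 196, 179.7 and 199 FPKM in siCXCR4, with overlapping groups (log2 fold change 0.05, limma adjusted p = 0.801), while its neighbour Psmb9 had -0.12. Tapbp, the tapasin gene, was at 511 and 522 FPKM in siNC and 575, 524 and 552 FPKM in siCXCR4 (log2 fold change 0.09, limma adjusted p = 0.664). Calr, a chaperone of the loading complex, had -0.12, and the class I gene H2-D1 had 0.10.

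Of 13 genes through which interferon controls the immunoproteasome, 9 lay above 0 and 4 below, with a median of 0.06. Irf1, a factor that induces the immunoproteasome genes, had -0.03 with overlapping groups, and turned to above 0 without siCXCR4 replicate 2 or without siNC replicate 2. Nlrc5, the transactivator of class I and immunoproteasome genes, was at 44.0 and 49.4 FPKM in siNC and 40.3, 40.5 and 46.2 FPKM in siCXCR4 (log2 fold change -0.14, SE 0.0808, limma adjusted p = 0.617). The kinase gene Jak1 was at 59.0 and 60.7 FPKM in siNC and 67.5, 62.3 and 69.3 FPKM in siCXCR4, all above (log2 fold change 0.15, limma adjusted p = 0.530), and the interferon gamma receptor gene Ifngr2 had 0.12 with all siCXCR4 values above.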

How the data were processed

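Total RNA of 6 labelled samples was sequenced with Illumina libraries, per the labels' protocols. The files of 5 samples hold normalized values, deposited without a named unit and taken here as FPKM, because value times length gave whole reads (within 0.05) after 1 scale factor per library. Whether FPKM or RPKM was meant cannot be told. The file of siNC replicate 3 holds deposited read counts, equal to those of siNC replicate 2. The submitters' processing notes name mm9, yet 98.3% of genes had the same position in GENCODE M21, so positions are in GRCm38. The aligner and counter were not given in the sources used here.

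Where 102 symbols had several entries, the highest mean was used. Groups were compared with limma 3.58.1 (R 4.3.3, trend and robust) on log2(FPKM + 1), two-sided, with Benjamini-Hochberg adjustment over 9943 genes whose mean reached 1 FPKM. edgeR 4.0.16 (TMM, quasi-likelihood, robust) and DESeq2 1.42.0 were run on the whole reads. The main limma, edgeR and DESeq2 fits were also run on simulated data, with planted changes larger than those reported here. The alternatives were not simulated. Alternatives covered pseudocount, filters, scaling, length, tests, the copy, a replicate block and each library left out. Genes were named by rule: Cxcr4, inducible and replaced subunits, members by lowest p and by abundance within each role, and set members and lowest p of each pathway list. The members and lists were chosen with earlier results of these data known. Some genes of the pathway lists enter the counts but are not reported here by name.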

Additional observations from a re-analysis of the deposited data

How the results depend on the processing

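Over the 16 alternatives (pseudocount, filters, scaling, gene length, other tests, the copy as a replicate, a replicate block and each library left out), 39 of 47 named genes kept their sign wherever they were tested (Psmd9, Psmf1, Psmg1 and Psmg3 were not under the filter of 5 FPKM). The filters and limma without trend or robust estimate leave the log2 fold change unchanged, so they could not turn a sign. Many of the named genes were chosen by lowest p. The number of genes called was 0 by limma, 17 by edgeR, 33 by DESeq2 and 6 by limma if the copy entered as its own siNC sample. It ran from 0 to 1 by limma and from 0 to 328 by edgeR with 1 library left out (0, 328 and 3 without siCXCR4 replicates 1, 2 and 3, and 5 and 18 without siNC replicates 1 and 2). Proteasome genes called were 0 by limma and edgeR, 1 by DESeq2, and 0 to 4 by edgeR with 1 library left out. Cxcr4 passed by DESeq2 (log2 fold change -0.34) and by edgeR without siCXCR4 replicate 2 (-0.40), and its edgeR value ran from -0.40 to -0.29 with 1 library left out. Proteasome genes above 0 numbered 13 to 22 with 1 library left out and 22 with a replicate block, which gives the estimates without siCXCR4 replicate 3, as that library has no siNC partner. The median of the regulatory particle was 0.0062 under quantile normalization. Several values that kept their sign also moved between the fits without siNC replicate 1 and 2, such as Psma6 (-0.058 and -0.22), Sem1 (-0.14 and -0.34), Nlrc5 (-0.22 and -0.058) and Stat3 (0.018 and 0.18). Deviations of same-numbered libraries from their group means had correlations of -0.04 and -0.11 between groups. With 2 siNC libraries the siNC deviations are mirror images, so these values cannot tell whether the numbers pair the samples. The block also gave 0.0023 for Psmb10, 0.0075 for Psmb7 and 0.044 for Psmg4, signs opposite to the main fit. Quantile normalization gave -0.017 for Uba1, and the length trend removed gave 0.020 for Psmg2. With 1 library left out the sign turned for Psma3 (-0.091 to 0.024), Psmb10 (-0.075 to 0.0023), Psmb7 (-0.11 to 0.0075), Psmf1 (-0.021 to 0.15), Psmg2 (-0.10 to 0.064), Psmg4 (-0.17 to 0.044) and Irf1 (-0.13 to 0.058). Level ratios with the principal transcript length were 2.03 (Psmb8/Psmb5), 0.418 (Psmb9/Psmb6) and 4.83 (Psmb10/Psmb7), by construction of the length. The cause of the other shifts was not tested. With 1 siNC library left, that library was assumed to vary like the other group. Depth limits the low genes Psmg1 to Psmg4, Psma8 and Psmc3ip.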

Other observations

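The genes of the constitutive core subunits differed widely in transcript level. Among them, Psmb5, Psmb6 and Psmb7 encode subunits that compete for their places with the inducible subunits. Per deposited gene length, the 14 constitutive core genes ran from 19.4 FPKM (Psmb1) to 137 FPKM (Psma6), a 7.05-fold range, and 7 of 14 lay within 2-fold of their median. Per kilobase of the principal transcript they ran from 31.8 (Psma3) to 304 (Psmb6), a 9.55-fold range, with 11 of 14 within 2-fold of the median. The 17 regulatory-particle genes ran from 15.6 FPKM (Psmd11) to 84.6 FPKM (Psmd2), a 5.42-fold range with 14 of 17 within 2-fold of the median, and with the principal transcript from 35.0 (Psmd11) to 132.7 (Psmd8), a 3.80-fold range with 17 of 17. The order of the genes thus depends on the length used, and which annotated exons were in use was not measured here.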
